A study of Mus musculus with 12 samples.

Results

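Integrins are adhesion receptors made of an alpha and a beta chain, and laminins are the basement membrane proteins that several of them bind. Genes were taken as members where the symbol on the array was that of an integrin alpha chain, an integrin beta chain or a laminin chain, which gave 35 genes of the 22180 measured: 17 alpha chains, 8 beta chains and 10 laminin chains. Itga10 was not analysed here. The mice were wild-type males on regular chow from 3 inbred strains, called here DBA (DBA/2J), B6 (C57BL/6) and 129 (129S6/SvEvTac), and per the labels they were 2 to 5 months old. The aortic arch was sampled in each strain (DBA arch, B6 arch and 129 arch) and the aortic root in 129 mice only (129 root), with 3 arrays per group and 12 in all. Each array held RNA of a pool of mice: 5 mice in 8 of the arch pools, 4 in B6 arch replicate 1 and 6 in each root pool. The root samples are titled as root but described as arch in another label field, and their titles were followed. The study's methods give a slightly narrower age range, and the series text names apoE strains beside the word wild-type. All values are log2 intensities. A level was compared between groups for the same gene and never between genes, and the files used here hold no detection calls, so the fold against a dim group may be understated.

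By way of background, the partners of a heterodimer set what it binds. The beta-1 chain pairs with most alpha chains into receptors for collagens, laminins and fibronectin, the alpha-v chain pairs with several beta chains into receptors for proteins with an arginine-glycine-aspartate motif, and the beta-2 chain pairs with alpha chains found on leukocytes. The alpha-IIb and beta-3 chains form the fibrinogen receptor of platelets. A laminin is a trimer of an alpha, a beta and a gamma chain, and in the artery wall laminins lie under the endothelium and around each smooth muscle cell.

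Promoters are shown for 4 of the members that differed between root and arch: the 2 integrin chains that rose most, the laminin chain that rose most, and the platelet chain that fell. The 250 bases before the RefSeq start of transcription are given on the strand of the gene, with the GRCm38.p6 coordinates: Itga11 at chr9:62677605-62677854 (plus strand), Itga2b at chr11:102469884-102470133 (minus strand), Itgam at chr7:128062390-128062639 (plus strand) and Lama2 at chr10:27616943-27617192 (minus strand). Capitals mark matches, on either strand, to GATAA (the core bound by GATA factors), GAGGAA (a core bound by ETS family factors, including PU.1), TGAGTCA (the AP-1 site) and the CArG box of serum response factor.
Itga11: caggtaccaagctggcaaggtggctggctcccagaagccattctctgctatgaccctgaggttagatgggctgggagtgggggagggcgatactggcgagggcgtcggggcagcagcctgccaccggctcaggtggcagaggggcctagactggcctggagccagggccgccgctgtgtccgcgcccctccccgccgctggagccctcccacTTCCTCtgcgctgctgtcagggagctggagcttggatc
Itga2b: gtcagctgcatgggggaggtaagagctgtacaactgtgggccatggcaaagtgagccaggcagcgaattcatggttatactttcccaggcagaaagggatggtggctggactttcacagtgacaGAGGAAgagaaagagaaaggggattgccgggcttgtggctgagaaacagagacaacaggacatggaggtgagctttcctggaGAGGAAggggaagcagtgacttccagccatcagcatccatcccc
Itgam: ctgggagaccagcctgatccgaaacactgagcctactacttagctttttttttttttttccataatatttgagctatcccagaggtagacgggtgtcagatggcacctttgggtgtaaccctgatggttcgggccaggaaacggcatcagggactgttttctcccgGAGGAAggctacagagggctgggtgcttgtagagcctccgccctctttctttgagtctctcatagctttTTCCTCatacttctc
Lama2: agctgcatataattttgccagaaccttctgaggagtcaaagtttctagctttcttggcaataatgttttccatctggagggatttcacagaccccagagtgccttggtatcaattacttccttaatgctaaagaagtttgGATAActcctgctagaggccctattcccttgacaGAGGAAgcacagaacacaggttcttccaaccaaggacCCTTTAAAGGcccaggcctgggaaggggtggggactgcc
GAGGAA, or TTCCTC where the match lies on the other strand, stood once before Itga11 and Lama2 and at 2 places before Itga2b and Itgam. It was found before 6 of the 7 members that differed between root and arch and had a promoter entry, and before 7 of the 15 other members with an entry, against 23.2% of 32851 promoters of the same length. Lama2 and Itgb6 (at 1 of its 2 starts) each held a CArG box, which 1.47% of promoters held and none of the 15 others did. GATAA was found before Lama2 and Itgax, against 22.6% of promoters, and TGAGTCA before Itgax alone, against 4.46%. The window of Itga11 had 68.4% G and C and 12 CpG, that of Itga2b 54% and 2, that of Itgam 49.6% and 6, and that of Lama2 47.2% and 0. Such matches describe the letters of these windows and are not binding sites. Itga6, Itgal, Itgb4 and Lamc1 had no entry.

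The root and arch of 129 mice were compared to find which chains differ between these parts of the aorta. In the root, Itga11, Itgam, Itgb6, Itgb4, Lama2, Itgb8, Itgav and Lamc1 were higher, from 2.28-fold down to 1.24-fold, and Itga2b, Itgal and Itga6 were lower, by 2.90-fold, 2.64-fold and 1.73-fold. These 11 members of 35 had an adjusted p below 0.05 in limma, where 15.8% of all genes did. The 8 higher members compare with 8.36% of all genes, and the 3 lower members with 7.45%. The arrays of the 2 groups did not overlap for 20 of the 35 members, against 35.8% of all genes. The median difference over the members was 0.10 on the log2 scale and that over all genes was 0.00. An unadjusted p below 0.05 was reached by 16 members and by 29.3% of all genes. Median centring of the arrays shifted the median of all genes to -0.11 and gave 4 higher and 4 lower members in place of 8 and 3: Itgav, Itgam, Itgb6 and Lamc1 were no longer called and Itgb7 was called lower. The call of 11 members fell to 7 without 129 arch replicate 2, 129 arch replicate 3 or 129 root replicate 1, to 6 without 129 root replicate 2 and to 5 without 129 root replicate 3. The 15.8% of all genes belongs to the fit of all 6 arrays and cannot be set beside these smaller counts. Itga11, Itga6, Itgal, Itgb4 and Lama2 were called in each of the 6 fits that left out an array.

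**Figure D1:**
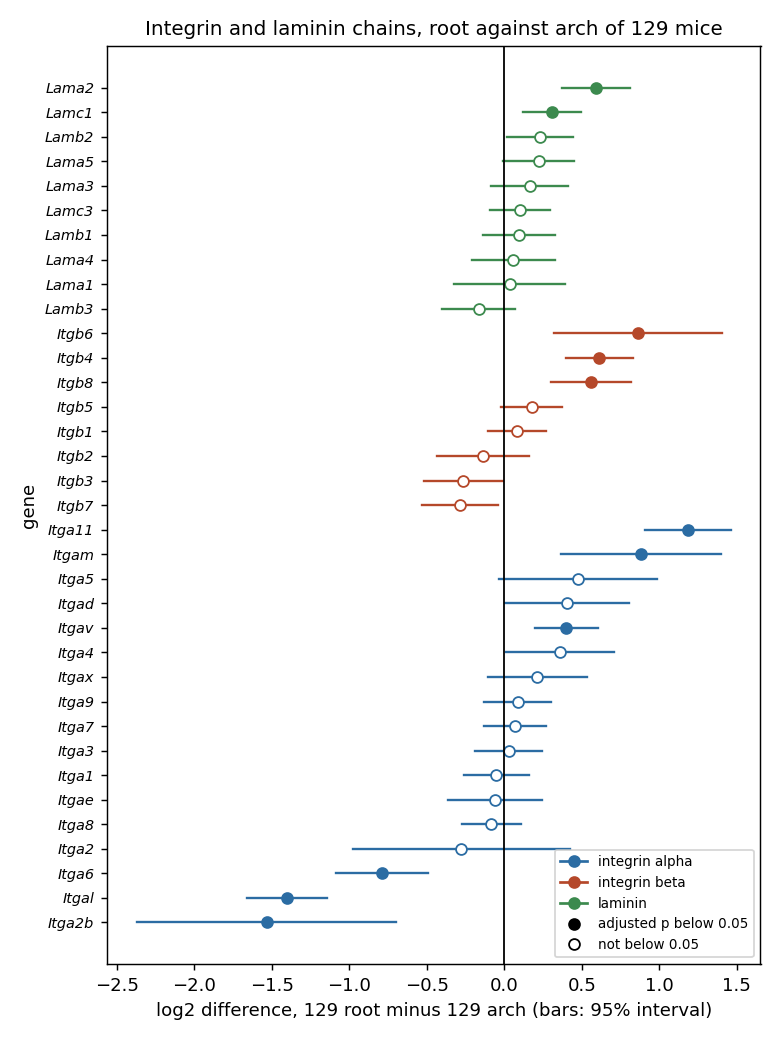
Log2 difference between 129 root and 129 arch (root minus arch, x axis) for each of the 35 integrin and laminin genes (y axis), with 3 arrays per group and bars for the 95% interval of the limma fit. Filled points are the 11 members with an adjusted p below 0.05; Itga11 lies farthest to the right at 1.19 and Itga2b farthest to the left at -1.53.

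Among the collagen-binding alpha chains, Itga11, the alpha-11 chain known from fibroblasts, differed most. Itga11 read 6.21, 5.89 and 6.18 on the 3 arrays of 129 arch. It read 7.18, 7.38 and 7.28 on those of 129 root. Every root array thus lay above every arch array. The means were 7.28 ± 0.10 in root and 6.09 ± 0.17 in arch (SD, n = 3), a difference of 1.19 ± 0.12 (SE), or 2.28-fold with a 95% interval of 1.88 to 2.76 (adjusted p = 0.000815). Its partner Itgb1, the beta chain shared by most integrins of the vessel wall, had means of 12.07 ± 0.04 in root and 11.99 ± 0.02 in arch, and its fold of 1.06 had an interval of 0.928 to 1.20 (adjusted p = 0.562). Itga1 and Itga2, the chains of the other collagen receptors measured here, had differences of -0.05 and -0.28 (adjusted p = 0.752 and 0.593). Several markers of fibroblasts and of cartilage stood higher in root: 4 of 8 fibroblast markers were called higher and 0 lower (Pi16 and Clec3b had differences of -0.31 and -0.42), with a summed signal of 24845 to 28346 against 19529 to 20423 in 129 arch, and 4 of 8 cartilage markers, with 2559 to 3123 against 594 to 767. Their part in the Itga11 difference was not tested, and in a mixed tissue fewer cells of a type and less RNA per cell cannot be told apart.

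Among the laminin receptors, the chains of the alpha-6 beta-4 receptor of hemidesmosomes moved apart. Itga6, which pairs with Itgb1 or Itgb4, read 8.67, 9.04 and 8.84 in 129 arch. It read 7.95, 8.20 and 8.03 in 129 root, below every arch array. The difference was -0.79 ± 0.13 (SE, adjusted p = 0.00616), which left the root at 57.8% of the arch. Itga6 is also found on platelets, whose 5 markers summed to 416 to 681 in root against 1387 to 4275 in 129 arch. Their part in the Itga6 difference was not tested. Itgb4 read 6.88, 6.69 and 6.76 in 129 arch and 7.37, 7.35 and 7.45 in 129 root, so that the root arrays were the higher ones. Its difference was 0.61 ± 0.09 (SE), or 1.53-fold (adjusted p = 0.00455). A further array cluster that carries the Itgb4 symbol together with another one had a difference of -0.10 and was not among the members. Both calls were lost when all 12 arrays shared a fit (adjusted p = 0.193 for Itga6 and 0.0814 for Itgb4). Itga3 and Itga7, the other laminin-binding alpha chains, differed by 0.03 and 0.07 (adjusted p = 0.870 and 0.629).

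The alpha-v chain and its partners Itgb6 and Itgb8, which with it bind and activate latent transforming growth factor beta, were each higher in root. Itgav read 10.39, 10.39 and 10.30 in 129 arch and 10.85, 10.72 and 10.72 in 129 root, without overlap. The difference was 0.40 ± 0.09 (SE), or 1.32-fold (adjusted p = 0.0215). A second Itgav cluster of far lower signal went the other way, with means of 3.59 ± 0.10 in root and 3.87 ± 0.07 in arch, and with the mean of both clusters Itgav was not called. Itgb8 read 8.08, 7.86 and 8.05 in 129 arch and 8.70, 8.44 and 8.54 in 129 root, again with all root arrays on top. Its difference was 0.56 ± 0.11 (SE), or 1.47-fold (adjusted p = 0.0140). Itgb6, the partner best known from epithelia, read 3.68, 3.69 and 3.66 in 129 arch and 3.97, 4.85 and 4.80 in 129 root. Root replicate 1 was thus close to the arch arrays and the other root arrays were higher, and the difference of 0.86 ± 0.23 (SE) was at adjusted p = 0.0461. Its level lay below the median of all genes. The other partners differed less: Itgb5 by 0.18 (adjusted p = 0.212), Itgb3 by -0.27 (0.156) and Itgb1 as given above. The Itgav call was lost without 129 arch replicate 3 or any of the root arrays (adjusted p = 0.0562 to 0.0797), that of Itgb6 without any of the arch arrays or root replicate 2 or 3 (0.106 to 0.140), and that of Itgb8 without root replicate 3 (0.0503). All 5 mesothelial markers, of the cells that line the pericardium and pleura, were called higher in root, with a summed signal of 1439 to 1640 against 337 to 528 in 129 arch, and 5 epithelial markers summed to 370 to 499 against 259 to 285. Among the latter, Krt8 was called higher (difference 1.34) and Cdh1 lower (-0.55), and Krt18 and Epcam had differences of 0.48 and -0.16. Their part in the Itgb6 and Itgb4 differences was not tested.

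Itga5 and Itga8, the alpha chains of the receptors for fibronectin and for nephronectin, were not called. Itga5 read 10.95, 10.54 and 11.21 in 129 arch and 11.34, 11.08 and 11.71 in 129 root, and the groups overlapped (difference 0.48, 95% interval -0.04 to 0.99, adjusted p = 0.200). Itga8 was steady, between 12.40 and 12.54 on all 6 arrays of 129 mice, with a difference of -0.08 (adjusted p = 0.556). Itga4 and Itga9, which bind vascular cell adhesion molecule 1 and tenascin among other ligands, had differences of 0.36 and 0.09 (adjusted p = 0.159 and 0.586). Another array cluster, which carries the Itga4 symbol together with a second symbol, had a difference of -0.08 and was not among the members.

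The platelet chain Itga2b fell most in root. It read 6.45, 7.87 and 7.55 in 129 arch and 5.97, 5.44 and 5.86 in 129 root. Arch replicate 1 was near the root arrays, and the other arch arrays were well above all of them. The difference was -1.53 ± 0.35 (SE), or 2.90-fold lower, with an interval of -2.37 to -0.70 on the log2 scale (adjusted p = 0.0277). The call was lost without arch replicate 2 or 3 or any of the root arrays (adjusted p = 0.0607 to 0.0889). All 5 platelet and megakaryocyte markers measured (Pf4, Ppbp, Gp9, Gp5 and Gp6) were lower in root, 3 of them past the threshold, and their summed signal was 416 to 681 in root against 1387 to 4275 in 129 arch. The partner Itgb3, which is also expressed outside platelets, had means of 9.54 ± 0.14 in root and 9.81 ± 0.10 in arch.

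The leukocyte chains that share Itgb2 went in opposite directions. Itgal, the alpha chain of the receptor LFA-1 of lymphocytes and other leukocytes, read 7.51, 7.39 and 7.44 in 129 arch and 6.22, 5.89 and 6.03 in 129 root. The groups were more than 1 apart on the log2 scale at their nearest arrays. The difference was -1.40 ± 0.11 (SE), which left the root at 37.8% of the arch (adjusted p = 0.000324). Itgam, the alpha chain of Mac-1 on macrophages and neutrophils, read 6.12, 6.69 and 6.93 in 129 arch and 7.48, 7.67 and 7.25 in 129 root. The spread of the arch arrays was wider than that of the root arrays, and no values overlapped. The difference was 0.88 ± 0.22 (SE), or 1.85-fold (adjusted p = 0.0356), and it was not called without arch replicate 2 or any of the root arrays (adjusted p = 0.0595 to 0.110). Itgb2 itself had means of 7.51 ± 0.16 in root and 7.64 ± 0.16 in arch (adjusted p = 0.529). Itgad, Itgax and Itgae, further alpha chains of leukocytes, lay below the median of all genes, with differences of 0.40, 0.21 and -0.06, and none was called. Itgb7, the partner of alpha-4 and alpha-E on lymphocytes, differed by -0.29 (adjusted p = 0.120).

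Marker lists of leukocytes moved in both directions too. In root, 7 of 8 macrophage markers were called higher, with a summed signal of 4559 to 5377 against 1452 to 2383 in 129 arch. All 6 markers of T cells and thymocytes were called lower, with 156 to 206 against 699 to 1486. All 4 B cell markers were called lower (71.7 to 83.0 against 134 to 159), and 4 of 6 neutrophil markers (120 to 168 against 282 to 371). Their part in the Itgal and Itgam differences was not tested.

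**Figure D2:**
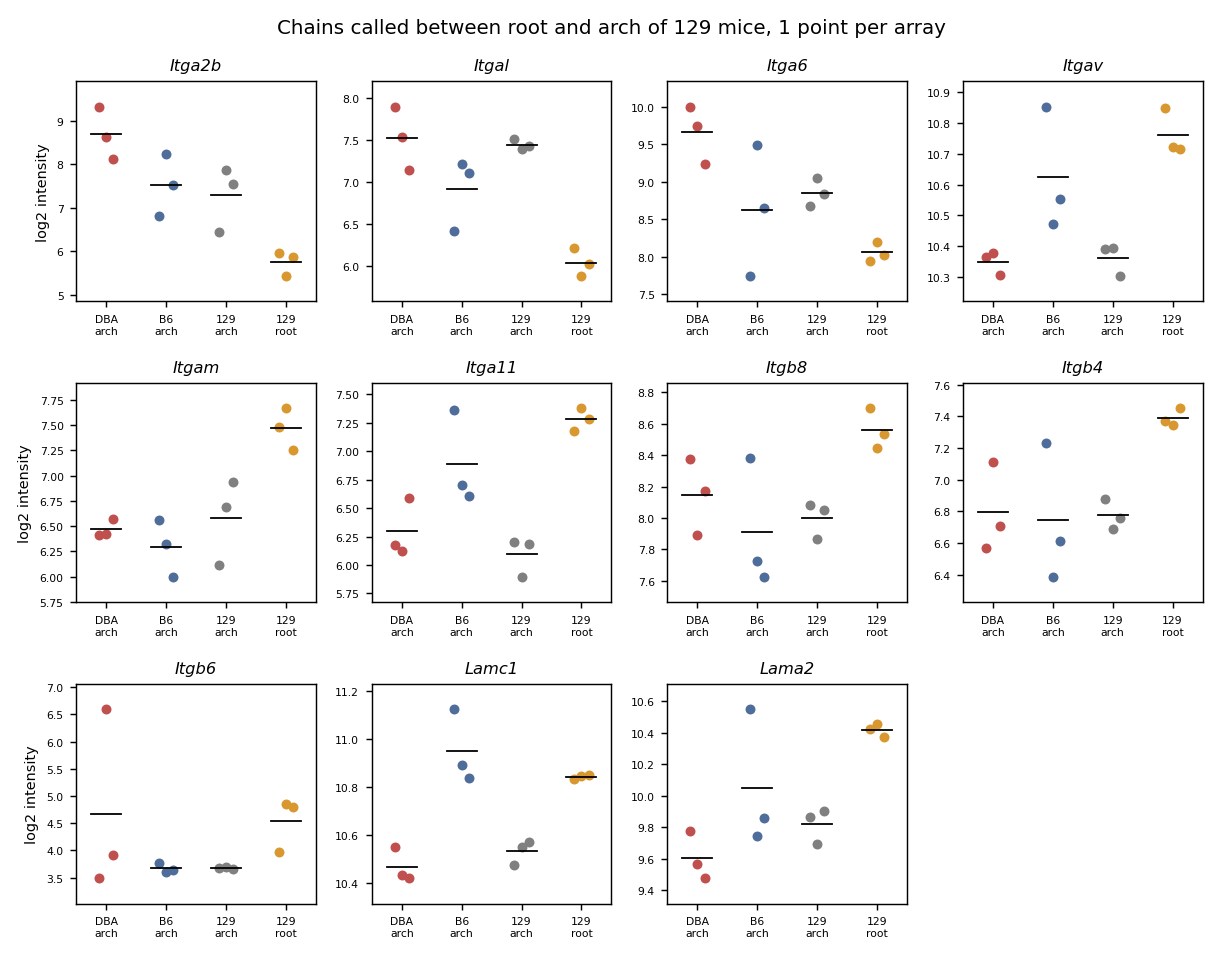
Log2 intensity (y axis) on each array of the 11 members called between 129 root and 129 arch, in the 4 groups (x axis), with 1 point per array and a line at the group mean. The root points of Itga11, Itgb4 and Itgb8 lie above every 129 arch point, those of Itgal, Itga6 and Itga2b lie below, and DBA arch replicate 2 stands out for Itgb6 at 6.60.

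Of the laminin chains, Lama2 and Lamc1 were higher in root, and they are chains of laminin-211, the trimer around muscle and Schwann cells. Lama2 read 9.86, 9.69 and 9.90 in 129 arch and 10.42, 10.46 and 10.37 in 129 root. The root arrays lay close together and above all arch arrays. The difference was 0.60 ± 0.09 (SE), or 1.51-fold (adjusted p = 0.00571), and it was not called with all 12 arrays in a fit (adjusted p = 0.0645). Lamc1, the gamma chain of most laminins, read 10.48, 10.55 and 10.57 in 129 arch and 10.83, 10.84 and 10.85 in 129 root. Its difference was small and even across arrays, 0.31 ± 0.08 (SE), or 1.24-fold (adjusted p = 0.0415), and it was not called in any of the 6 fits that left out an array (adjusted p = 0.0771 to 0.130). The remaining chains of laminin-211 and laminin-221, Lamb1 and Lamb2, had differences of 0.10 and 0.23 (adjusted p = 0.574 and 0.138), and no array of root overlapped the arch for Lamb2. Lama4 and Lama5, the alpha chains of endothelial basement membranes, had folds of 1.04 and 1.17, with intervals of 0.865 to 1.25 and 0.996 to 1.36. Lama1, Lama3, Lamb3 and Lamc3, which are best known from other tissues, had differences between -0.16 and 0.17 and were not called. Over the 10 laminin chains the median difference was 0.13, and 9 were positive.

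Genes around these receptors were counted on the same scale. Of 29 adaptors and signalling proteins of integrins measured, 4 rose in root and 0 fell, a share of 13.8% that lies near the 15.8% of all genes. They were Itgb1bp2 (melusin, of striated muscle), Tns3 (a tensin), Lims1 (an adaptor of integrin-linked kinase) and the kinase gene Src, with differences of 1.76, 0.61, 0.48 and 0.45 and adjusted p of 0.0177, 0.00589, 0.00862 and 0.0367. In root, 6 of 8 cardiac muscle markers were called higher, with a summed signal of 15917 to 23345 against 1439 to 2501 in 129 arch, and their part in the Itgb1bp2, Lama2 and Lamc1 differences was not tested. Of 26 basement membrane partners of laminins, 8 rose and 0 fell, with a median of 0.22, a share of 30.8% against the 15.8% of all genes. The 4 largest were Frem1 (a protein of the epithelial basement membrane) at 1.27, Nid2 (which links laminin to collagen IV) at 1.27, Egflam (pikachurin, a dystroglycan ligand) at 1.14 and Frem2 at 1.12, with adjusted p from 0.00127 to 0.00477. Of 30 ligands of integrins, 8 rose and 1 fell, with a median of 0.15, a share of 30% against the same 15.8%. Edil3, a secreted ligand of alpha-v integrins, was 5.00-fold higher (difference 2.32 ± 0.09, SE, adjusted p = 2.63e-05). Thbs1, thrombospondin 1, was 3.14-fold higher (adjusted p = 0.000702), Vcam1, the endothelial ligand of alpha-4 beta-1, was 2.91-fold higher (adjusted p = 0.000181), and Tgfb1, whose latent form alpha-v integrins bind, was 1.77-fold higher (adjusted p = 0.00143). The ligand that fell was Cdh1, E-cadherin, which binds alpha-E beta-7 (difference -0.55, adjusted p = 0.0407).

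Tissue identity was checked with the same arrays. The 8 smooth muscle markers had a summed signal of 36702 to 43483 over the 12 arrays, with 1 of 8 called higher in root, and the 8 endothelial markers 7396 to 9194, with 2 called higher and 1 lower. Besides the lists above, 6 of 6 adipocyte markers were called lower in root, with a summed signal of 1729 to 2715 against 16405 to 19484.5 in 129 arch. The largest fall among them, -8.28, was also the largest of all genes. Their part in the differences of members was not tested. Calls in root were also made for 2 of 7 skeletal muscle markers (higher), 1 of 4 Schwann cell markers (lower), 1 higher and 1 lower of 5 epithelial markers, 2 of 5 hepatocyte markers (lower) and 1 of 5 lung epithelial markers (lower). In the arch, B6 replicate 1 stood apart with a summed hepatocyte signal of 10013 against at most 217 on the other 11 arrays, and with an adipocyte sum of 4687 where the other arch arrays had 13159 to 21315. DBA arch replicate 2 stood apart with a lung epithelial sum of 6220 against at most 258, and a cardiac sum of 31239. Without both arrays, 11 of the 105 strain differences of members changed sign, all of them 0.23 or smaller in size and none called. For several strain results that rest on these arrays, values with and without them are given.

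The arch of the 3 strains was compared next, in a fit of the 9 arch arrays. No member passed the threshold in any of the strain contrasts: 0 of 35 between DBA and 129, between B6 and 129, and between DBA and B6, where limma called 1.44%, 1.45% and 1.55% of all genes. An unadjusted p below 0.05 was reached by 8, 6 and 11 members, against 11.97%, 12.05% and 12.49% of all genes. The Tukey-Kramer test of the study's methods, at 0.05 and without adjustment over genes, called 5, 5 and 3 members, against 6.97%, 6.83% and 7.48% of all genes, and 0 members after adjustment. The groups did not overlap for 17, 9 and 8 members, against 20.9%, 17.5% and 17.1% of all genes. The contrasts with 129 share its arch arrays with each other and with the comparison of root and arch. The member nearest to the threshold was Itga4.

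Itga4, the alpha-4 chain that lets leukocytes bind the vessel wall, read 6.72, 6.69 and 6.54 in DBA arch. It read 7.67, 6.85 and 7.14 in B6 arch and 7.93, 7.39 and 7.81 in 129 arch. The DBA arrays were the 3 lowest of the 9, and B6 overlapped 129. DBA was at 48.0% of 129, a difference of -1.06 ± 0.22 (SE, adjusted p = 0.0554), and the difference between B6 and 129 was -0.49 (adjusted p = 0.414). Without B6 arch replicate 1 the difference between DBA and 129 was called (adjusted p = 0.0151), as it was without B6 arch replicate 2 (0.0399), and without both arrays that stood apart (0.0390). Over all 19 alternatives its adjusted p ran from 0.0151 to 0.389. The other cluster with the Itga4 symbol was compared between root and arch only. Itgb7, which pairs with the alpha-4 chain on lymphocytes, was highest in 129. Its values were 5.21, 5.78 and 5.32 in DBA arch, 4.88, 5.55 and 5.28 in B6 arch, and 5.81, 5.83 and 6.02 in 129 arch. Neither other strain overlapped 129, with differences of -0.45 for DBA (adjusted p = 0.421) and -0.65 for B6 (0.209), and they were -0.62 without DBA arch replicate 2 and -0.47 without B6 arch replicate 1. The T cell and thymocyte markers had their highest sums in 129 arch too. These were 699 to 1486, against 237 to 449 in DBA and 225 to 867 in B6, which overlapped 129. Ordered by Itga4, 3 of the 9 arch arrays had the same rank as by the mean log2 value of these markers (Spearman correlation 0.62). By Itgb7 it was 0 (0.53). In 129 root all 6 markers were called lower than in 129 arch. Itga4 had a mean of 8.07 in root against 7.71 in 129 arch, and Itgb7 of 5.60 against 5.89. The part of these markers in the strain differences of Itga4 and Itgb7 was not tested.

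Lamc3, the laminin gamma-3 chain, had its lowest mean in 129. It read 10.37, 10.10 and 10.20 in DBA arch, 10.57, 9.83 and 10.06 in B6 arch, and 9.42, 9.44 and 9.48 in 129 arch. The 129 arrays lay close together and below all 6 others. The difference from 129 was 0.78 ± 0.18 (SE) for DBA, or 1.71-fold (adjusted p = 0.0839), and 0.71 ± 0.18 (SE) for B6, or 1.63-fold (adjusted p = 0.116). Without B6 arch replicate 1 the former was called (adjusted p = 0.0124) and the latter was 0.50 (0.132). The root of 129 mice stood near the 129 arch, at 9.51, 9.52 and 9.62. Lamc1 was highest in B6, with 11.12, 10.89 and 10.84, against 10.55, 10.43 and 10.42 in DBA and 10.48, 10.55 and 10.57 in 129. Its differences were -0.49 ± 0.11 between DBA and B6 (SE, adjusted p = 0.0724) and 0.42 ± 0.11 between B6 and 129 (adjusted p = 0.129), and DBA and 129 overlapped. Without B6 arch replicate 1 they were -0.40 and 0.33. The paper lists Lamc1 as significantly higher in B6 than in 129 aorta, by the Tukey-Kramer test of its methods, which name no adjustment over genes. The level it lists, 1481, is also the 129 arch signal here, so its listing is taken to rest on the same arrays. Itga11 was also highest in B6, with 7.36, 6.70 and 6.61, against 6.17, 6.13 and 6.59 in DBA and 6.21, 5.89 and 6.18 in 129. The differences of 0.80 from 129 and -0.59 between DBA and B6 (adjusted p = 0.150 and 0.287) rested in part on B6 replicate 1 and were 0.56 and -0.36 without it. The fibroblast markers had a summed signal of 20317 to 26741 in B6, highest on replicate 1, against 17949 to 20653 in DBA and 19529 to 20423 in 129. Of the 8, 1 was called between B6 and 129 and 0 between DBA and B6, with median differences of 0.27 and -0.44, and their part in the Itga11 differences was not tested.

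**Figure D3:**
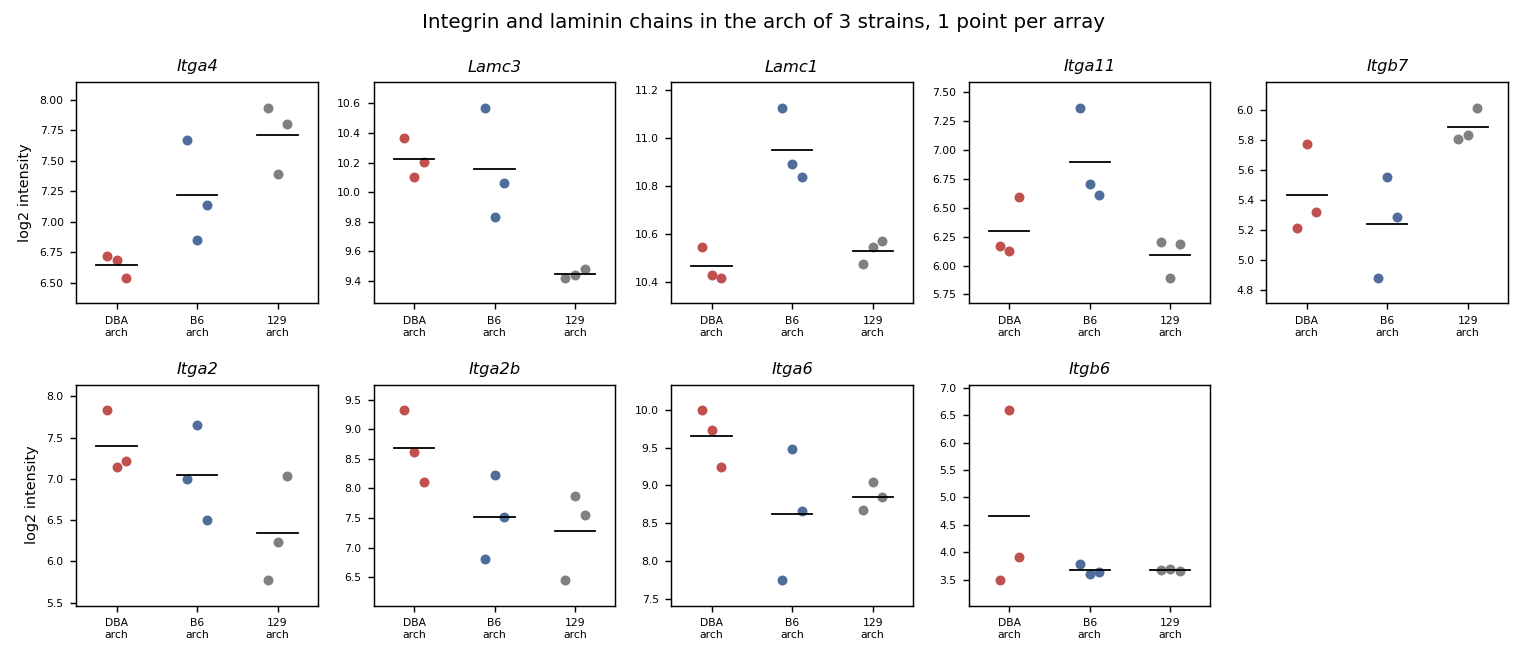
Log2 intensity (y axis) on each arch array for 9 integrin and laminin genes in DBA, B6 and 129 mice (x axis), with 1 point per array and a line at the group mean. The DBA points of Itga4 are the lowest of the 9 arrays, the 129 points of Lamc3 lie at 9.42 to 9.48 below all others, and the B6 points of Itga2b, Itga6 and Itga2 spread over more than 1.

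Itga2b, Itga6, Itga2 and Itgb3, which are found on platelets, had their highest arch means in DBA. Higher values in DBA were not particular to these chains. Of the 35 members, 28 had a positive difference between DBA and 129, and 24 had one between DBA and B6. Over the 22180 genes these counts were 11143 and 11990. Not every chain was highest in DBA. Itga5 had its lowest arch mean in DBA, 10.72 against 10.89 in B6 and 10.90 in 129. So had Itgav, with 10.35 against 10.63 and 10.36. Itga2b read 9.32, 8.62 and 8.12 in DBA arch, against 6.81, 8.23 and 7.52 in B6 arch and 6.45, 7.87 and 7.55 in 129 arch. DBA lay above all 129 arrays and overlapped B6, and the difference from 129 was 1.40 ± 0.47 (SE), or 2.63-fold with an interval of 1.26 to 5.50 (adjusted p = 0.251). Itga6 read 10.00, 9.74 and 9.24 in DBA arch, 7.75, 9.48 and 8.66 in B6 arch and 8.67, 9.04 and 8.84 in 129 arch. Its difference between DBA and 129 was 0.81 ± 0.38 (SE, adjusted p = 0.459). Itga2, the collagen receptor chain of platelets and other cells, read 7.84, 7.14 and 7.22 in DBA arch, 7.00, 7.66 and 6.50 in B6 arch and 5.77, 6.24 and 7.04 in 129 arch, and its difference between DBA and 129 was 1.05 ± 0.37 (SE, adjusted p = 0.286). Itgb3 had a difference of 0.53 between DBA and 129 (adjusted p = 0.146). Without DBA arch replicate 2 the differences of Itga2b, Itga6 and Itga2 were 1.43, 0.77 and 1.18. Without B6 arch replicate 1, the differences of Itga2b, Itga6, Itga2 and Itgb3 between DBA and 129 kept their size. Their adjusted p was then 0.158, 0.180, 0.258 and 0.0702. The difference of Itga6 between B6 and 129 was -0.22 with that array and 0.22 without it.

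The summed signal of the 5 platelet and megakaryocyte markers was 7522 to 11103 in DBA arch, 2655 to 6927 in B6 arch and 1387 to 4275 in 129 arch, and none of the 5 was called between DBA and 129 (4 had an unadjusted p below 0.05). Ordered by Itga2b, the 9 arch arrays stood in the same order as by the mean log2 value of these markers. DBA replicate 1 was highest and 129 replicate 1 lowest in both. Ordered by Itga6, 6 of the 9 arrays had the same rank as by the markers, and for Itga2 and Itgb3 it was 3 and 4. The Spearman correlations over these arrays were 0.95 for Itga6, 0.83 for Itga2 and 0.77 for Itgb3. For Itgam beside the macrophage markers and Itgal beside those of T cells and thymocytes, 0 of the 9 arch arrays had the same rank. Their correlations were 0.12 and 0.32. Itgal beside the neutrophil markers had the same rank on 3 of the 9 arrays, with a correlation of 0.57. Itgam differed from 129 by -0.11 in DBA and -0.29 in B6, where the 8 macrophage markers had median differences of 0.39 and 0.67. These orders are descriptions over 9 arrays that share strain and pool. The part of platelet transcripts in the differences of root and arch and of the strains was not tested.

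**Figure D4:**
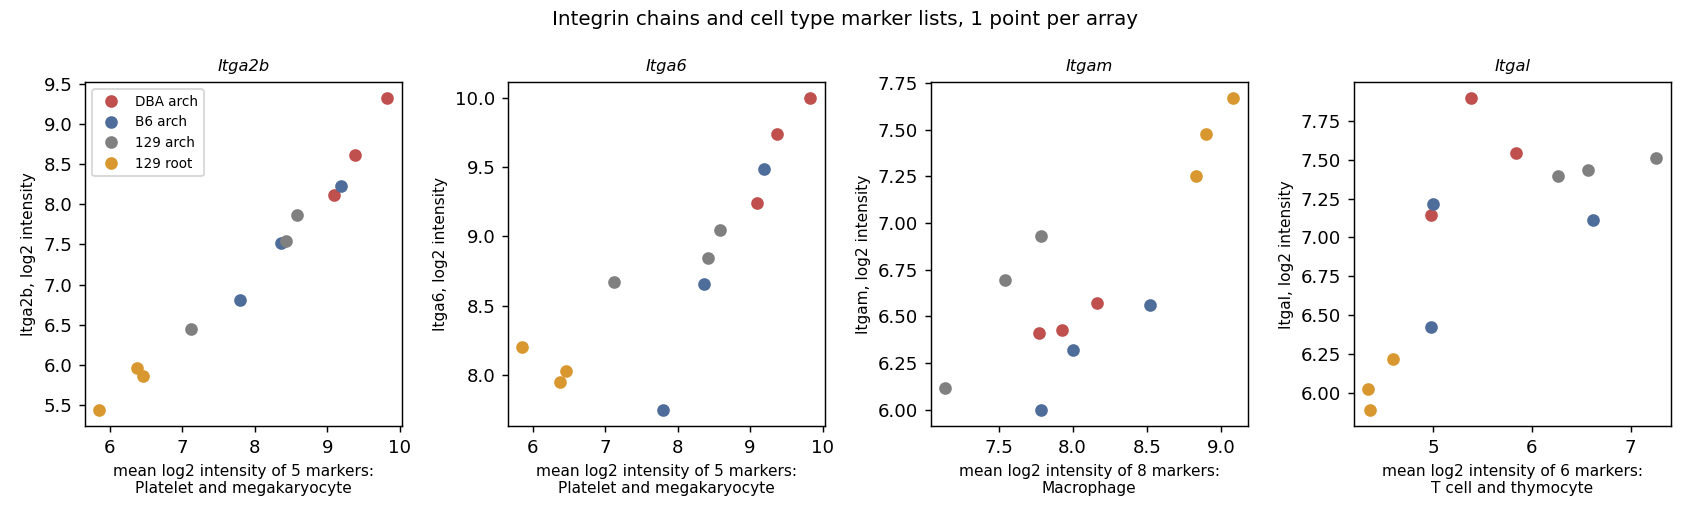
Log2 intensity of Itga2b, Itga6, Itgam and Itgal (y axes) against the mean log2 intensity of a marker list (x axes), with 1 point for each of the 12 arrays, coloured by group. Itga2b is higher on arrays with a higher mean of the 5 platelet and megakaryocyte markers, the root arrays are highest for both Itgam and the 8 macrophage markers, and they are lowest for both Itgal and the 6 T cell and thymocyte markers, while among the 9 arch arrays 0 have the same rank by either of these genes and its list.

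Itgb6 stood out on 1 arch array. It read 3.49, 6.60 and 3.91 in DBA arch, 3.78, 3.60 and 3.64 in B6 arch and 3.68, 3.69 and 3.66 in 129 arch. The high array, DBA arch replicate 2, is the one that also held lung epithelial transcripts, and the difference between DBA and 129 was 0.99 ± 0.66 (SE, adjusted p = 0.637). Without that array it was 0.02. Lamb3, a laminin beta chain known from epithelia, read 4.51, 5.43 and 4.78 in DBA arch and 3.53, 4.57 and 3.93 in B6 arch, which overlapped. Its difference between these strains was 0.90 (adjusted p = 0.217), and 0.40 without both arrays that stood apart. Itgal differed by 0.61 between DBA and B6 with overlapping arrays (adjusted p = 0.324), and by 0.36 without those arrays. Itgb1, Itga8 and Itgav varied less. Itgb1 read between 11.89 and 12.20 and Itga8 between 12.44 and 12.69 over the 9 arch arrays. The DBA arrays of Itgb1 lay above those of both other strains, with differences of 0.14 from 129 and 0.17 from B6 (adjusted p = 0.645 and 0.531). Itgav differed by -0.01 between DBA and 129 and by 0.26 between B6 and 129 (adjusted p = 0.984 and 0.427). The latter was 0.15 without B6 arch replicate 1. Between DBA and B6 Itgav differed by -0.28 without overlap (adjusted p = 0.381), and by -0.16 without that array. Over the 35 members the median difference was 0.17 between DBA and 129, 0.09 between B6 and 129 and 0.07 between DBA and B6, beside 0.00, -0.02 and 0.02 over all genes.

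The genes around the receptors gave a few strain calls. Of 29 adaptors, Tln2, talin 2, was higher in DBA than in 129 and than in B6, by 0.73 and 0.63 (adjusted p = 0.0228 and 0.0427), and 0 adaptors were called between B6 and 129, where 2 had an unadjusted p below 0.05. Of 26 basement membrane partners, Sgcb, a sarcoglycan, was higher in DBA than in 129 and than in B6, by 0.82 and 0.79 (adjusted p = 0.00580 and 0.00788). Bcam, a laminin-binding adhesion molecule, was lower in 129 than in DBA and B6, which exceeded it by 0.63 and 0.72 (adjusted p = 0.0472 and 0.0278). Of 30 ligands, Ibsp, bone sialoprotein, was lower in DBA than in 129 (difference -1.23 ± 0.19, SE, adjusted p = 0.0182), and 0 ligands were called in the contrasts with B6, where 6 (B6 and 129) and 5 (DBA and B6) had an unadjusted p below 0.05. Of the adaptors, partners and ligands, 3.45%, 7.69% and 3.33% were called between DBA and 129, against 1.44% of all genes. Between B6 and 129 the shares were 0%, 3.85% and 0%, and between DBA and B6 they were 3.45%, 3.85% and 0%. Of the 26 partners, 11 had an unadjusted p below 0.05 between B6 and 129 (42.3%, against 12.05% of all genes). The count was 8 between DBA and 129 and 7 between DBA and B6. The B6 and 129 arrays did not overlap for 16 partners (61.5%, against 17.5% of all genes), with a median difference of 0.22. Both shares include B6 arch replicate 1, which stood apart, and they were not computed without it. In fits added after these calls were seen, which left out both arrays that stood apart, Sgcb was still called against 129 and B6 (adjusted p = 0.0145 and 0.0218), as was Ibsp between DBA and 129 (0.0155). Tln2 was then not called (0.0701 against 129 and 0.143 against B6), nor was Bcam (0.109 for DBA and 0.0882 for B6, each against 129). Without DBA arch replicate 2 alone, Ibsp was at 0.0692, and without B6 arch replicate 1 alone Ibsp was also called between B6 and 129 (difference -1.03, adjusted p = 0.0275).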

How the data were processed

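From each pool, 250 ng of total RNA was made into labelled cDNA for Affymetrix whole-transcript mouse gene arrays. The values deposited by the authors are log2 intensities, 1 per transcript cluster and array, already normalised. The submitters' processing notes name Affymetrix Expression Console. How probes were summarised and normalised, and on which genome build, is not given in the sources used here. Array medians were 4.68 to 4.82. The number of arrays limits the precision, and p-values measure the spread between pools.

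Among 41345 clusters, 23521 carried a lone gene symbol. Where a gene had several of these, the brightest on average was kept, which left 22180 genes. Groups were compared by limma (version 3.58.1, R 4.3.3; lmFit, then eBayes), two-sided, and p-values were adjusted over the 22180 genes by the Benjamini-Hochberg method, with a threshold of 0.05. Root and arch were fitted over the 6 arrays of 129 mice, and the strains over the 9 arch arrays. Folds are 2 to the power of the difference of mean log2 values, and summed signals are on the linear scale. The fit was tested on simulated data. Promoters and gene identities came from RefSeq (GRCm38.p6): 22 members had a promoter entry. The members, gene lists and tests were chosen with earlier results of these data known. Full values are given for called members, their partner chains, and members without overlap that differ at least 1.5-fold; at most 4 called genes are named per list and contrast. The closing section gives the alternatives tried.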

Additional observations from a re-analysis of the deposited data

How the results depend on the processing

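For 20 differences of members described in full, 321 values were computed under alternatives, of which 258 kept their side of the threshold, 42 lost it, 21 passed it and 0 changed sign. Between root and arch, where 11 members were called, 11 were called without the dim genes (Lamb2 in place of Itgb6, which was then not tested) and with quantile normalisation (Itgb7 in place of Itgam), 8 with median centring, 14 with a robust trended prior, 10 with the mean of a gene's clusters and 5 with all 12 arrays in a fit. Leaving out an array gave 5 to 9. Between DBA and 129, where 0 were called, 2 were called without the dim genes, with a robust trended prior, with all 12 arrays, with the 6 arrays of the contrast alone and without both arrays that held other organs' transcripts (Itga4 and Lamc3), 1 with quantile normalisation or median centring (Itga4), and 5 by the Tukey-Kramer test at 0.05; leaving out an array gave 0 to 2. Between B6 and 129, 1 was called with the robust prior (Lamc1), 2 with all 12 arrays (Lamc1 and Lamc3) and 5 by the Tukey-Kramer test. Between DBA and B6, 1 was called without the dim genes, with median centring, with the robust prior or with all 12 arrays (Lamc1), and 3 by the Tukey-Kramer test. The causes were not tested.

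The titles give each group the replicate numbers 1 to 3, but nothing says that equal numbers share a litter or day. Deviations of same-numbered arrays correlated at 0.04 to 0.05 between root and arch and at -0.09 to 0.11 among strains, so the arrays were taken to share only a number. With the replicate block, 7 members were called between root and arch, 1 between DBA and 129 (Itga4) and 0 in the other contrasts.

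With 3 arrays per group, small differences could not be told from the spread, and members below the median of all genes (8 of 35) had no detection call.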
